A study of Mus musculus with 8 samples.

Results

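H2-D1 and H2-K1 are the heavy chains of the classical class I molecules of the mouse major histocompatibility complex (MHC). They were taken as the rows of the deposited gene table that carry exactly these names, which gave 2 loci, 1 for each gene, of 49868 named loci. Both were singled out for their level by genotype in these same libraries, so their wildtype and Has-tKO values are given as a description, with no test. The libraries come from mesenchymal stem cells (MSc) grown out of the femora and tibiae of 8 mice, 4 wildtype (C57Bl6/J) and 4 Has-tKO. Has-tKO mice lack Has1 and Has3 constitutively and lose Has2, the remaining hyaluronan synthase, once Cre is switched on by 4-hydroxytamoxifen. Cells of both genotypes were kept for 4 passages, received 4-hydroxytamoxifen for 48 h in passages 2 and 3, and were harvested on day 7 of osteogenic culture, so exposure to the drug is shared by the controls. The labels name neither the driver of the inducible Cre, nor the strain background of the Has-tKO mice, nor the age or sex of the animals.

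A class I heavy chain pairs with beta-2-microglobulin, the product of B2m, and presents a peptide at the surface of nearly every nucleated cell. The peptides are cut by the proteasome, carried into the endoplasmic reticulum by the Tap1 and Tap2 transporter and loaded with the help of tapasin, and the finished complex is read by CD8 T cells and natural killer cells. Class I promoters are known to bind NF-kappaB and interferon regulatory factors and to be driven by the coactivator Nlrc5, and stromal cells raise class I when they meet interferon or inflammatory cytokines. Levels below are FPKM, the authors' fragment level per transcript length and per library total. Means carry the SD over the 4 mice of a genotype. The sequencing depth is unknown, so no counting error can be attached to a value.

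The region just upstream of each gene is shown as a description of sequence, and whether it bears on the levels was not tested. The sequences are the 250 bases before the RefSeq start site, from RefSeq on build GRCm38.p6. The H2-D1 window is chr17:35262844-35263093 on the plus strand, the H2-K1 window is chr17:34000334-34000583 on the minus strand, and the B2m window is chr2:122147437-122147686 on the plus strand. H2-K1 has 2 start sites in that table and the one farther downstream was used. Capitals mark every match, on either strand, to GGGATTCCC (the core of the kB motif of class I enhancers), GGACTTTCC (the core of the kB motif first described in the immunoglobulin kappa enhancer), TTTCNNTTC and TTCNNTTTC (2 forms of the core of the interferon response element), CCAAT, and TGACG (the core of the cyclic AMP response element).
H2-D1: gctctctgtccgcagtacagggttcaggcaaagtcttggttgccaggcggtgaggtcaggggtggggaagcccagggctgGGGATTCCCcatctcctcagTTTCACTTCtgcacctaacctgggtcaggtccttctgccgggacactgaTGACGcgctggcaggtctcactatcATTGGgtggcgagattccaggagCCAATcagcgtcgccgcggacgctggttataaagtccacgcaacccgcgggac
H2-K1: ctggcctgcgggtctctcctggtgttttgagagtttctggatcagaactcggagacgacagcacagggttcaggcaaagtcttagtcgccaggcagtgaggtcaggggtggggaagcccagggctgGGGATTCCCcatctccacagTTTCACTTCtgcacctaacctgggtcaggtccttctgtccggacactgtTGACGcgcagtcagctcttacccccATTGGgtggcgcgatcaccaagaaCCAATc
B2m: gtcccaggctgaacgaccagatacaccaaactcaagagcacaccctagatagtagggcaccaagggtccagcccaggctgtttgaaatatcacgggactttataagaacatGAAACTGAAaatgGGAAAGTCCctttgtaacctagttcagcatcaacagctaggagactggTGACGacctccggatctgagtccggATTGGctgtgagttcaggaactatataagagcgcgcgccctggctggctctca

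The heavy chain promoters share their motifs in the same order, at different distances from the start site. The kB core begins at -170 in H2-D1 and at -124 in H2-K1. In both, the interferon core TTTCACTTC starts 20 bases after the first base of the kB core, TGACG starts 69 bases after it and the inverted CCAAT box (ATTGG) 94 bases after it. The forward CCAAT box starts 117 bases after it in H2-D1 and 118 bases after it in H2-K1. Over the 191 bases that could be aligned, 172 (90.1%) were identical between H2-D1 and H2-K1. The B2m window, on another chromosome, holds the kappa type of kB core and the other form of the interferon core. GGGATTCCC was found in 99 of 32851 upstream windows of this length (0.301%). These windows belong to 95 genes, including H2-D1, H2-K1, H2-Q6 and H2-Q7 among class I heavy chains. GGACTTTCC was found in 0.283% of windows, TTTCNNTTC in 6.31%, TTCNNTTTC in 7.13%, CCAAT in 33.8% and TGACG in 17.8%. No motif here overlaps another in the 3 windows. A match is a description of letters, and binding was not measured.

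H2-D1 was among the most abundant transcripts of these cells, and more so in Has-tKO. Its level was 133 FPKM in wildtype 1, 198 FPKM in wildtype 2, 215 FPKM in wildtype 3 and 164 FPKM in wildtype 4. In Has-tKO it was 395 FPKM (Has-tKO 1), 399 FPKM (Has-tKO 2), 271 FPKM (Has-tKO 3) and 255 FPKM (Has-tKO 4). All 4 Has-tKO libraries thus lay above all 4 wildtype libraries, with Has-tKO 1 and Has-tKO 2 well above the other Has-tKO libraries. The wildtype mean was 178 ± 36.6 FPKM and the Has-tKO mean 330 ± 77.7 FPKM, a ratio of 1.86. On the log2(FPKM + 1) scale Has-tKO was 0.88 higher (SE 0.21). H2-D1 ranked between 36 and 50 among the 9916 tested genes in the wildtype libraries and between 14 and 26 in the Has-tKO libraries.

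H2-K1 showed nearly the same difference. Its wildtype SD was smaller than that of H2-D1 as deposited and larger after scaling (28.6 against 17.5 scaled FPKM). Its level was 110 FPKM in wildtype 1, 119 FPKM in wildtype 2, 122 FPKM in wildtype 3 and 104 FPKM in wildtype 4. The Has-tKO libraries had 271 FPKM (Has-tKO 1), 278 FPKM (Has-tKO 2), 161 FPKM (Has-tKO 3) and 154 FPKM (Has-tKO 4). Here too no Has-tKO library reached down to a wildtype one, and Has-tKO 1 and Has-tKO 2 were the highest. The means were 114 ± 8.10 FPKM and 216 ± 67.5 FPKM, a ratio of 1.90, and the log2 difference was 0.87 (SE 0.21). Of all tested genes, 12.0% had all Has-tKO libraries above all wildtype libraries in the values as deposited. That share is given as background only, since the pair was chosen on this contrast.

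**Figure D1:**
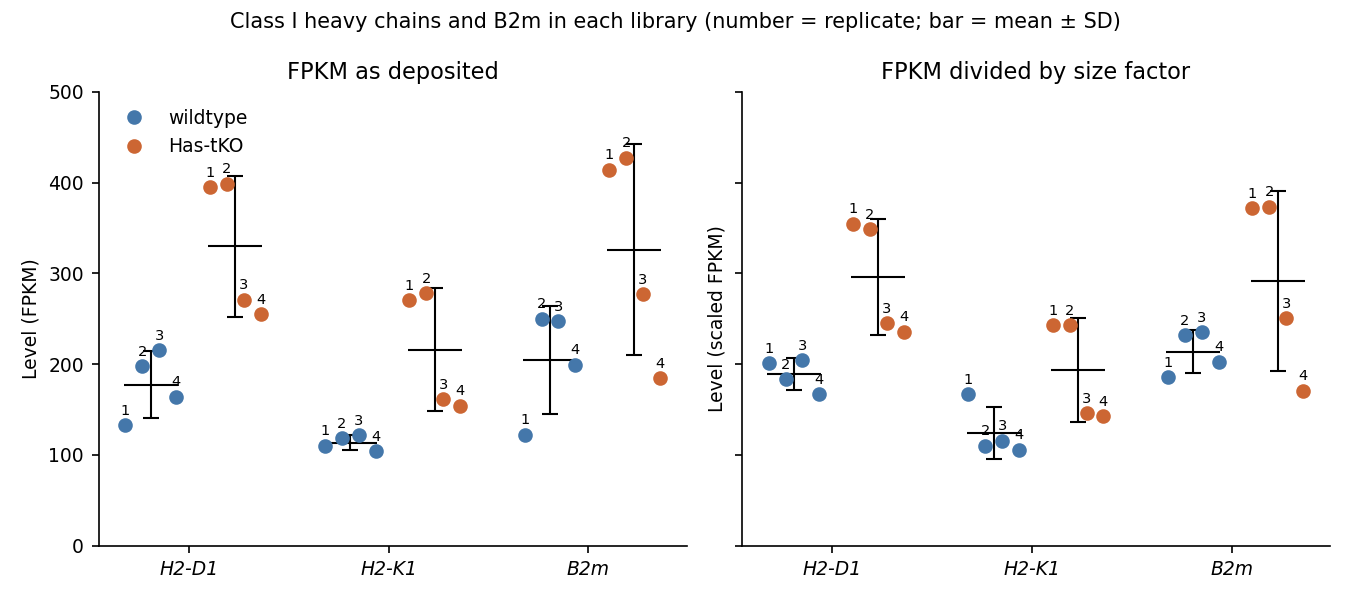
Levels of H2-D1, H2-K1 and B2m in each library, as deposited (left, FPKM) and after division by a size factor per library (right, scaled FPKM). Points are libraries numbered by replicate, blue for wildtype and orange for Has-tKO, and bars give mean ± SD (n = 4). Has-tKO 1 and Has-tKO 2 are the highest libraries for all 3 genes, and wildtype 1 moves up on the right, to 167 scaled FPKM for H2-K1.

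The size of the difference depended on how libraries were put on one scale. Over all tested genes the median log2 difference was 0.16 as deposited, and dividing each library by a median-ratio size factor (0.660 for wildtype 1, 0.984 to 1.14 for the other 7) brought it to -0.03. After this scaling H2-D1 lay at 167 to 205 scaled FPKM in wildtype and 236 to 355 in Has-tKO, still without overlap, with a log2 difference of 0.62 and a ratio of 1.57. H2-K1 lay at 106 to 167 scaled FPKM in wildtype and 143 to 243 in Has-tKO, with a log2 difference of 0.61 and a ratio of 1.55. The H2-K1 groups then overlapped, because wildtype 1 (167) stood above Has-tKO 3 (146) and Has-tKO 4 (143). Wildtype 1 was also the library with the fewest named loci at 1 FPKM or more, 8327 against 9679 to 10357 in the other 7, and 61.5% of its FPKM fell on loci without a name. With wildtype 1 left out, the unscaled log2 difference was 0.75 for H2-D1 and 0.86 for H2-K1.

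The balance between the pair showed no separation by genotype. H2-D1 exceeded H2-K1 in each library, on a scale per transcript length. The ratio of H2-D1 to H2-K1 was 1.20 in wildtype 1, 1.67 in wildtype 2, 1.77 in wildtype 3 and 1.58 in wildtype 4. In Has-tKO it was 1.46 in replicate 1, 1.43 in replicate 2, 1.68 in replicate 3 and 1.65 in replicate 4. The groups overlapped fully, at 1.56 ± 0.246 in wildtype and 1.56 ± 0.128 in Has-tKO, and no library scaling can alter such a ratio. Wildtype 1 had the lowest ratio. As deposited its H2-D1 was the lowest of the wildtype libraries and its H2-K1 lay among them, while after scaling its H2-D1 lay among them and its H2-K1 was the highest.

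Sequence shared between the genes sets how well reads can be told apart. The longest protein-coding transcripts of GENCODE M21, H2-D1-202 with 2102 bases and H2-K1-201 with 1619 bases, aligned over 1472 bases with 90.7% identity. Of the 75-base windows of H2-D1, 1.2% also occur in an H2-K1 transcript and 6.9% in a transcript of any other gene, all 17 of these being class I heavy chain genes, class I pseudogenes or predicted genes. Of the 75-base windows of H2-K1, 1.6% occur elsewhere, and no 100-base window does. For H2-D1, 4.6% of 100-base windows occur in another gene, among them H2-Q1, H2-Q6 and H2-Q7, and none in H2-K1. Read length and the handling of multiply mapped reads are unknown here, so a part of each level could belong to a relative. Class I genes differ in sequence between mouse strains, and whether the Has-tKO mice carry the H2 alleles of the reference, and what another allele would do to the values of the pair, was not tested. The summed FPKM of the pair ranged from 243 to 337 FPKM in wildtype, and from 409 to 677 FPKM in Has-tKO, with a log2 difference of 0.88 (0.62 after scaling).

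Other class I heavy chains were far less abundant, and none passed the test of genotype. The pair held 91.8% to 94.8% of the summed FPKM of the 19 listed heavy chain genes that have a row in the table. Of these 19, 8 passed the filter of 1 FPKM in 4 libraries, the pair included, and 4 were listed at 0 in all 8 libraries (H2-M1, H2-M9, H2-M10.1 and H2-M11). The test was limma on log2(FPKM + 1), with Benjamini-Hochberg adjustment over all 9916 tested genes and a threshold of 0.05. It called 1.77% of all tested genes, 1.58% higher and 0.192% lower in Has-tKO. After scaling it called 2.65%, with 1.36% higher and 1.29% lower. It called 0 of the 6 other tested heavy chains, of which 4 had an unadjusted limma p under 0.05, where 16.7% of all tested genes did. All 6 differences were positive, as were 73.3% of those of all tested genes, and their median was 0.55, against 0.16 over all tested genes. After scaling 0 of the 6 were called and the median was 0.36.

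These 6 heavy chains are given in order of rising limma adjusted p. H2-K2, a transcribed pseudogene beside H2-K1, averaged 0.759 ± 0.0621 FPKM in wildtype against 1.70 ± 0.671 FPKM in Has-tKO (log2 difference 0.58, limma adjusted p = 0.132). H2-Q1 had 1.99 ± 0.651 and 3.92 ± 1.42 FPKM (0.70, limma adjusted p = 0.152). H2-M3, which presents formylated peptides of bacterial and mitochondrial origin, had 5.13 ± 0.585 and 8.01 ± 2.45 FPKM (0.53, limma adjusted p = 0.190). H2-T22, a ligand of some gamma delta T cells, had 6.68 ± 0.610 and 9.99 ± 3.16 FPKM (0.48, limma adjusted p = 0.261). H2-Q7, a Qa-2 gene, had 1.18 ± 0.459 and 2.81 ± 2.11 FPKM (0.63, limma adjusted p = 0.418). H2-T23, which encodes Qa-1 and displays class I leader peptides to natural killer cells, had 4.02 ± 1.20 and 5.49 ± 2.32 FPKM (0.33, limma adjusted p = 0.516). All Has-tKO libraries lay above all wildtype libraries for H2-K2 and H2-M3, and for none of the 6 after scaling, where 5.64% of all tested genes had this order.

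The high level in Has-tKO 1 and Has-tKO 2 recurred across the class I genes. These libraries were the highest for 5 of the 6 other heavy chains (H2-T23 being the exception), where 10.0% of all tested genes showed this order. After scaling it held for 4 of the 6, against 4.91% of all tested genes. This order was looked for after the values were seen, and reads of near-identical sequence can tie the heavy chains to one another. Of the 11 tested genes of class I assembly and peptide supply, 5 had this order, and 3 after scaling. The cause of the order was not tested. B2m was 1 of the 5, with 414 FPKM in Has-tKO 1 and 428 FPKM in Has-tKO 2, against 277 FPKM in Has-tKO 3 and 185 FPKM in Has-tKO 4. Has-tKO 4 thus lay below 3 of the wildtype libraries for B2m, which had 122, 250, 247 and 200 FPKM in wildtype 1 to 4, while for the pair it lay above all 4.

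**Figure D2:**
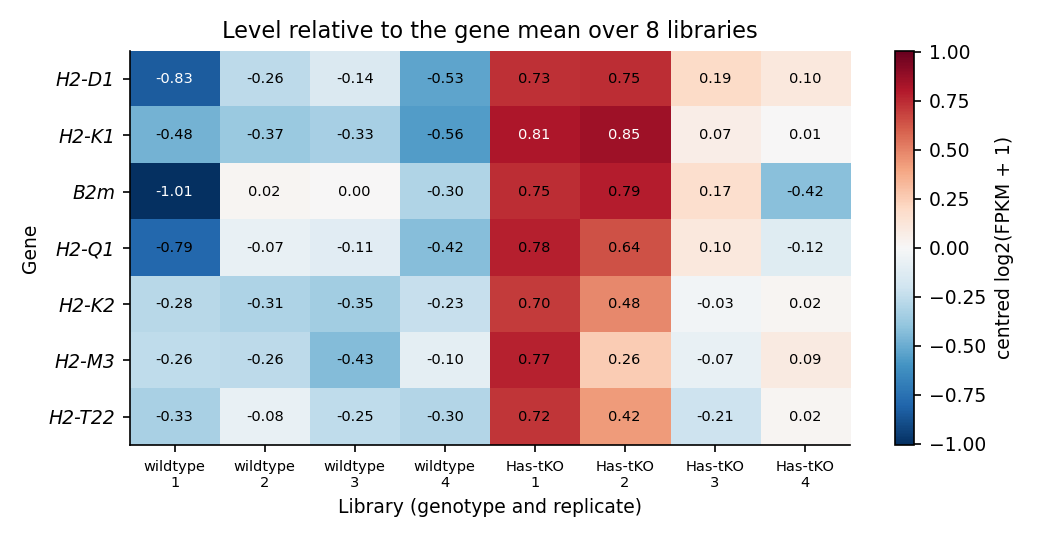
Level of the pair, B2m and 4 other heavy chain genes in each library (columns) relative to the mean of each gene (rows) over 8 libraries, as centred log2(FPKM + 1), red above and blue below the mean. Has-tKO 1 and Has-tKO 2 are the highest libraries in every row shown, and B2m is at -1.01 in wildtype 1. Not drawn are the tested heavy chains H2-T23, which does not have this order, and H2-Q7, which does.

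The genes of class I assembly and peptide supply did not pass the test either. All 11 that have a row were tested and limma called 0. Of the 11, 3 had an unadjusted limma p under 0.05, where 16.7% of all tested genes did. Of the 11 differences 10 were positive, as were 73.3% of those of all tested genes. Their median was 0.36, against 0.16 over all tested genes. B2m averaged 205 ± 59.7 FPKM in wildtype against 326 ± 116 FPKM in Has-tKO (log2 difference 0.64, limma adjusted p = 0.300). Psmb8, an interferon-inducible proteasome subunit, had 3.34 ± 1.28 and 6.06 ± 3.04 FPKM (0.65, limma adjusted p = 0.297), and Psmb9, another such subunit, had 1.34 ± 0.292 and 2.38 ± 1.58 FPKM (0.39, limma adjusted p = 0.557). Psme1, part of the proteasome activator PA28, had 9.07 ± 0.367 and 12.2 ± 2.38 FPKM (0.38, limma adjusted p = 0.268). Tapbpl, a tapasin-related peptide editor, had 3.01 ± 0.571 and 4.38 ± 0.397 FPKM (0.43, limma adjusted p = 0.182).

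The transporter and the loading proteins sat closer to 0. Tap1 had a log2 difference of 0.18 and Tap2 of 0.16 (limma adjusted p = 0.788 and 0.701). Tapbp, which encodes tapasin, had 0.21 (limma adjusted p = 0.535), and Erap1, which trims peptides in the endoplasmic reticulum, had 0.36 (limma adjusted p = 0.491). The chaperone Calr had -0.28 (limma adjusted p = 0.514) and the disulfide isomerase Pdia3 0.04 (limma adjusted p = 0.921). After scaling Tap1 (-0.06), Tap2 (-0.09), Tapbp (-0.04) and Pdia3 (-0.22) had a negative sign, and the median of the 11 was 0.13. All Has-tKO libraries lay above all wildtype libraries for Tapbpl and Psme1 as deposited, an order that 12.0% of all tested genes had. After scaling none of the 11 had it, against 5.64% of all tested genes.

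Relative to B2m, the pair differed less between genotypes. The ratio of H2-D1 to B2m was 0.791 to 1.08 in wildtype and 0.932 to 1.38 in Has-tKO, a log2 difference of 0.24. For H2-K1 it was 0.474 to 0.900 in wildtype and 0.583 to 0.835 in Has-tKO, a log2 difference of 0.23. The groups overlapped in both ratios, and the highest values belonged to wildtype 1 and Has-tKO 4, the libraries with the least B2m.

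Among factors known to act on class I promoters, some NF-kappaB genes were higher in Has-tKO. Of 16 tested regulators 2 rose and none fell, Nfkb2 and Relb, subunits of the noncanonical NF-kappaB pathway, where 1.58% of all tested genes rose. At an unadjusted limma p under 0.05, reached by 16.7% of all tested genes, 7 of the 16 were higher. Nfkb2 went from 12.4 ± 1.51 to 28.5 ± 2.33 FPKM (log2 difference 1.14, SE 0.15, limma adjusted p = 0.00778), and Relb from 6.06 ± 1.43 to 13.9 ± 1.59 FPKM (1.09, SE 0.18, limma adjusted p = 0.0179). For Nfkb2 and Relb, all Has-tKO libraries lay above all wildtype libraries, and Has-tKO 1 and Has-tKO 2 were not the 2 highest. The genotypes were separated in this way also for Irf1, Irf8 and Nfkb1, making 5 of the 16, against 12.0% of all tested genes. After scaling 5 of the 16 were so separated, against 5.64% of all tested genes. Nfkb2 ranged from 10.4 to 13.9 FPKM in wildtype and from 26.1 (Has-tKO 2) to 31.0 FPKM (Has-tKO 1), and Relb from 4.25 to 7.38 FPKM and from 11.5 (Has-tKO 2) to 14.9 FPKM (Has-tKO 4). Both passed after scaling (limma adjusted p = 0.00998 and 0.0129), as did Nfkb1 (0.50, limma adjusted p = 0.0454), which had not passed before (0.72, limma adjusted p = 0.0742) and also passed without wildtype 1 (0.0435). The Nfkb2 and Relb calls were lost without wildtype 4 (limma adjusted p = 0.0547 and 0.0807) or Has-tKO 1 (0.0541 and 0.0853), and the Relb call also without Has-tKO 4 (0.0528). Without a filter on low values neither passed (limma adjusted p = 0.0619 and 0.132).

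The other regulators of class I promoters did not pass. Irf8, a factor of myeloid cells, had 2.35 ± 1.21 and 5.66 ± 1.51 FPKM (log2 difference 1.04, limma adjusted p = 0.0648), and passed without wildtype 3 (limma adjusted p = 0.0207). Irf1, a factor induced by interferon and by NF-kappaB, had 3.34 ± 0.661 and 6.78 ± 2.57 FPKM (0.80, limma adjusted p = 0.0908), and passed without wildtype 1 and Has-tKO 4 together (limma adjusted p = 0.0479). Nlrc5 had 4.05 ± 1.87 and 5.52 ± 3.12 FPKM (0.31, limma adjusted p = 0.682), with its highest value in Has-tKO 1 (9.62 FPKM) and its lowest in Has-tKO 4 (2.04 FPKM). Rfx5, a subunit of the RFX complex at class I and class II promoters, had a difference of 0.34 (limma adjusted p = 0.432).

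**Figure D3:**
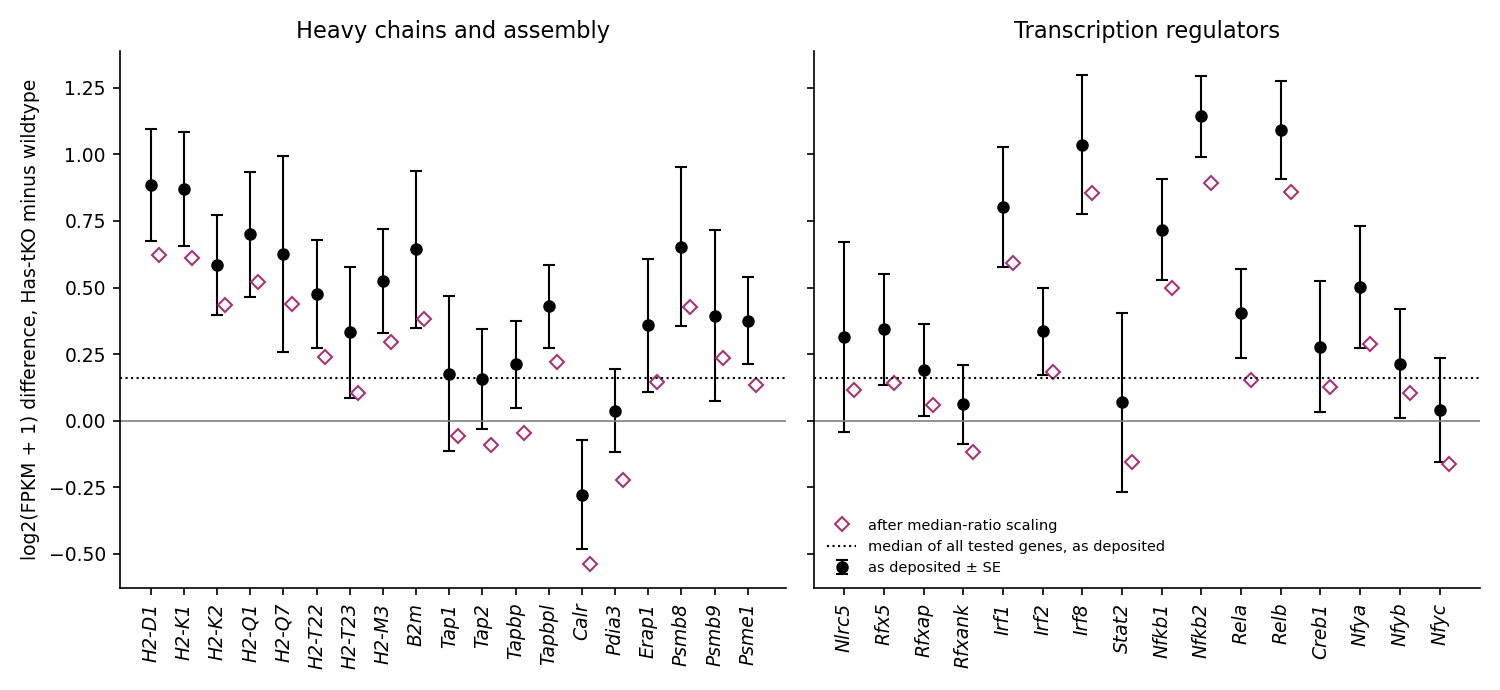
Difference between genotypes for tested heavy chain and assembly genes (left) and promoter regulators (right), as log2(FPKM + 1) in Has-tKO minus wildtype. Black points are values as deposited with limma SE, open diamonds are values after median-ratio scaling, and the dotted line is the median of all tested genes as deposited (0.16). Nfkb2 (1.14) and Relb (1.09) passed the test, and H2-D1 and H2-K1 are drawn as a description.

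Interferon-induced genes, class II genes and class I relatives outside the MHC gave no calls. Of 23 tested interferon-induced genes limma called 0, and 5 had an unadjusted p under 0.05, where 16.7% of all tested genes did. Their median difference was 0.17, next to 0.16 over all tested genes. The smallest p values belonged to the guanylate-binding protein Gbp5 (1.05, limma adjusted p = 0.0509), the chemokine Cxcl10 (1.20, limma adjusted p = 0.109), Gbp2 (0.70, limma adjusted p = 0.212) and the oligoadenylate synthetase Oas2 (0.96, limma adjusted p = 0.213). Gbp5 passed without wildtype 3 (limma adjusted p = 0.0456), without Has-tKO 4 (0.0339) and with the replicate number as a block (0.0438), and Cxcl10 passed with that block (0.0350). The summed level of the interferon list was 408 FPKM in Has-tKO 1 and 92.2 FPKM in Has-tKO 4, with wildtype between 113 and 203 FPKM.

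Class II presentation had 6 tested genes, none called. At an unadjusted limma p under 0.05, reached by 16.7% of all tested genes, 1 was higher and 1 lower. These were Cd74, the invariant chain (1.25, limma adjusted p = 0.297), and the lysosomal thiol reductase Ifi30 (-0.60, limma adjusted p = 0.0901), which passed without wildtype 1 (0.0399). The class II chains H2-Eb1 (0.89, limma adjusted p = 0.324) and H2-DMa (0.24, limma adjusted p = 0.545) followed. Has-tKO 4 stood out here, with 49.5 FPKM of Cd74 against 2.11 to 17.8 FPKM in the other 7 libraries, while it was the lowest Has-tKO library for H2-D1 and H2-K1. Of 4 tested class I relatives outside the MHC none was called and 1 was lower at an unadjusted p under 0.05. All 4 differences were negative, at -0.38 for the lipid presenter Cd1d1 (limma adjusted p = 0.212), -0.38 for Mr1, which presents vitamin B metabolites (0.303), -0.28 for the neonatal Fc receptor Fcgrt (0.535) and -0.03 for the iron regulator Hfe (0.957). All Has-tKO libraries lay below all wildtype libraries for Cd1d1 and for Ifi30, an order that 1.53% of all tested genes had.

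Markers of other cell types were read beside these values. Lum (540 FPKM), Ibsp (296 FPKM) and Alpl (121 FPKM) were the most abundant tested mesenchymal and osteoblast markers by their wildtype means. In Has-tKO these means were 349 FPKM for Lum, 147 FPKM for Ibsp and 67.4 FPKM for Alpl, opposite in direction to the pair. Of the 7 tested, limma called 0, where 2 were lower at an unadjusted p under 0.05, and the median difference was -0.31. The 7 differences were 4 negative and 3 positive, the positive ones being Eng (0.54), Pdgfra (0.07) and Thy1 (0.07). After scaling Ibsp (-1.21, limma adjusted p = 0.0142) and Alpl (-1.07, limma adjusted p = 0.0139) fell, and the median was -0.52. Both also passed without wildtype 1 (limma adjusted p = 0.0104 and 0.0173), as did Lum (0.0298), and Ibsp and Alpl passed with the replicate number as a block (0.0342 and 0.0489). The part of these cells in the levels of the pair was not tested. Of 21 listed macrophage and myeloid markers 17 had a row, none of these at 0 in all libraries, and 16 were tested. Of these 16, 3 rose and none fell, Cx3cr1 (log2 difference 1.35, limma adjusted p = 0.0371), Cd52 (0.87, 0.0454) and Spi1 (1.06, 0.0458), and 1 rose after scaling, Cx3cr1 (1.18, limma adjusted p = 0.0361). Of all tested genes 1.58% rose, and 1.36% after scaling. All 16 markers were higher at an unadjusted limma p under 0.05, where 16.7% of all tested genes had such a p. Their median difference was 0.98, against 0.16 over all tested genes. All Has-tKO libraries lay above all wildtype libraries for 8 of the 16, and for 12.0% of all tested genes. After scaling this held for 3 of the 16, against 5.64% of all tested genes. All 3 calls were lost without wildtype 4 (limma adjusted p = 0.143 to 0.173), Has-tKO 1 (0.147 to 0.170), Has-tKO 2 (0.0602 to 0.0929) or Has-tKO 4 (0.0853 to 0.119). All 3 were also lost without a filter on low values (limma adjusted p = 0.205 to 0.225) and with a pseudocount of 0.1 (0.0526 to 0.0673). The Spi1 call was lost with a pseudocount of 0.5 as well (limma adjusted p = 0.0514). The Cd52 and Spi1 calls were also lost with the replicate number as a block (limma adjusted p = 0.0560 and 0.0535) and without wildtype 2 (0.105 and 0.0738), the Cx3cr1 and Spi1 calls without Has-tKO 3 (0.0520 and 0.0967), and the Spi1 call without wildtype 1 (0.0538). Their summed level ranged from 403 to 687 FPKM in wildtype, against 658 to 1078 FPKM in Has-tKO. It was highest in Has-tKO 1 (1078 FPKM) and Has-tKO 4 (1055 FPKM), followed by Has-tKO 2 (815 FPKM) and Has-tKO 3 (658 FPKM), an order that differs from that of H2-D1 and H2-K1 in Has-tKO 4. Macrophages also carry class I, and in bulk RNA more cells of a type and more RNA per cell cannot be told apart. The part of myeloid cells in the levels of the pair was not tested. Of 12 lymphocyte markers 7 were at 0 in all libraries, Cd3e and Cd8a included, and the list summed to at most 0.572 FPKM. The 8 endothelial markers summed to 5.01 to 6.68 FPKM in wildtype, against 4.95 to 6.25 FPKM in Has-tKO, and of these only Egfl7 was tested, and not called.

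The genes with the profile nearest to the pair were found by the root mean square difference over the 8 libraries of log2(FPKM + 1), each gene centred on its own mean. For H2-K1 the nearest of all tested genes was H2-D1 (0.17, where the median gene was at 0.51), followed by the predicted gene Gm47469 (0.20), H2-K2 (0.20), H2-Q1 (0.20) and the lysosomal peptide transporter Slc15a3 (0.20). For H2-D1 the nearest were Gm47469 (0.09), H2-Q1 (0.12), the palmitoyltransferase Zdhhc14 (0.13), Was, an actin regulator of blood cells (0.13), and Gpr183, an oxysterol receptor (0.14), where the median gene was at 0.47. H2-K1 was 18th on that list and B2m 149th. These likenesses are descriptions over 8 libraries that share the genotype contrast.

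H2-D1, H2-K1 and the engineered Has1 locus all lie on chromosome 17, while Has2 is on chromosome 15 and Has3 on chromosome 8. Has1 and Has2 were not analysed here. Has3 was below the filter, at 0.236, 0.415, 0.466 and 0.394 FPKM in wildtype 1 to 4 and 0.663, 0.576, 0.621 and 0.150 FPKM in Has-tKO 1 to 4. The labels do not describe the deleted Has3 sequence, so these values check no label. Gene order was taken from RefSeq on GRCm38.p6, which names a position for 96.1% of tested genes and places 81 protein-coding genes between H2-K1 and H2-D1. Between Has1 and H2-D1, 197 tested genes other than H2-K1 lie, of which 6 rose and none fell. That is 3.05%, against 2.96% of all 473 tested genes of chromosome 17 other than the pair and 1.77% on the other chromosomes. The differences between these shares were not tested. After scaling 5 of the 197 rose and 2 fell, where 1.36% of all tested genes rose and 1.29% fell. The median difference of the 197 genes was 0.14, near the 0.16 of all tested genes.

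The genes called closest to the pair changed in opposite directions. Within 1 Mb of the interval from H2-K1 to H2-D1, 81 other genes were tested, 1 rose and 1 fell, and the median difference was 0.16. That is 2.47% called, against 2.96% on chromosome 17 and 1.77% of all tested genes. The differences between these shares were not tested. The gene that rose was Tnf, an inflammatory cytokine and NF-kappaB target whose gene lies inside the MHC between H2-K1 and H2-D1 (2.20 ± 0.783 to 8.49 ± 2.14 FPKM, log2 difference 1.58, SE 0.23, limma adjusted p = 0.0109). Cdsn, the gene of the skin adhesion protein corneodesmosin, fell from 65.4 ± 25.1 to 20.2 ± 14.7 FPKM (log2 difference -1.76, SE 0.39, limma adjusted p = 0.0462). Both passed after scaling (limma adjusted p = 0.00998 and 0.0271). Tnf was lost without wildtype 4 (limma adjusted p = 0.0547), Has-tKO 1 (0.0541) or the filter on low values (0.127). Cdsn was lost without wildtype 2, wildtype 3, wildtype 4, Has-tKO 1, Has-tKO 2 or Has-tKO 4 (limma adjusted p = 0.0609 to 0.174), and with a pseudocount of 0.1 (0.0628) or 0.5 (0.0514) or no filter (0.272). The other 5 genes between Has1 and H2-D1 that rose were Tnfrsf12a, Abca3, Msrb1, Dusp1 and Pim1, at log2 differences of 0.87 to 1.28, chosen for naming after their values were seen. None of these 5 passed without wildtype 4 (limma adjusted p = 0.0762 to 0.118) or without Has-tKO 1 (0.0884 to 0.132). Without the filter on low values none of the 5 passed either (limma adjusted p = 0.0889 to 0.164). Msrb1 and Dusp1 did not pass after scaling (limma adjusted p = 0.136 and 0.123). Leaving out other libraries also ended the call for Tnfrsf12a (Has-tKO 2 or 3), Abca3 (Has-tKO 2 or 4), Msrb1 (wildtype 2, Has-tKO 3 or 4) and Dusp1 (wildtype 2 or Has-tKO 4), at limma adjusted p = 0.0566 to 0.0795. The deletion of Has1 and the genotype of the other Has loci cannot be told apart in this design. Any difference in strain background, which the labels do not give for Has-tKO mice, could not be told apart from genotype either.

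**Figure D4:**
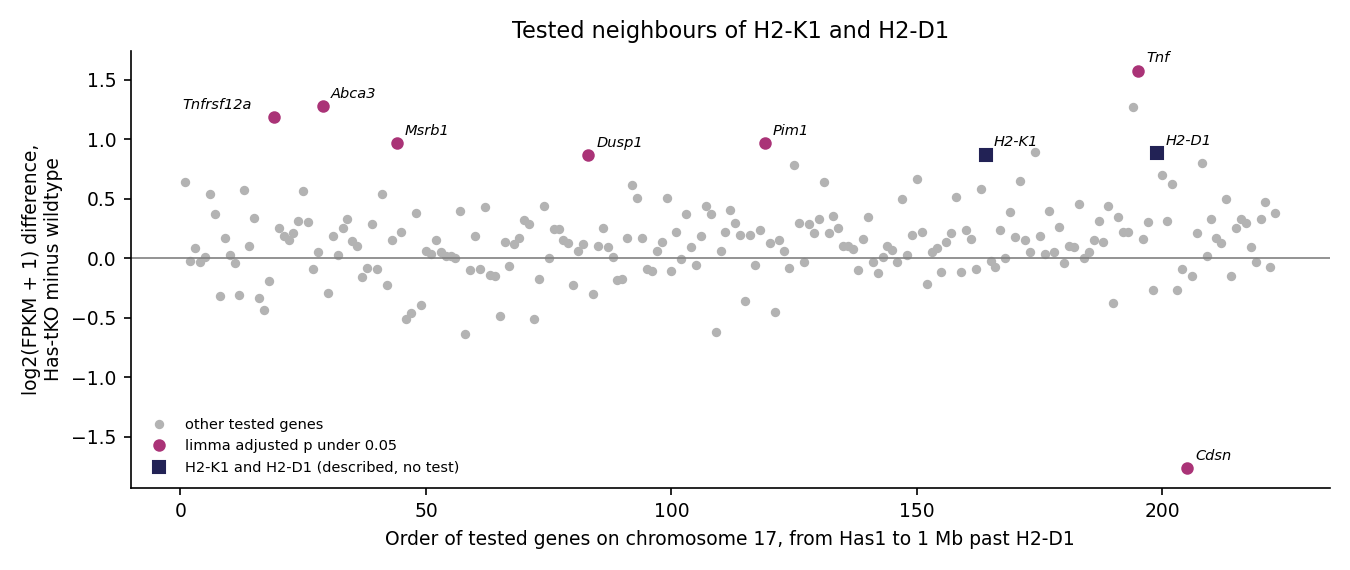
Difference between genotypes (log2(FPKM + 1), Has-tKO minus wildtype) of tested genes on chromosome 17, in their order from Has1 to 1 Mb past H2-D1. Filled purple points passed limma, dark squares are H2-K1 and H2-D1 as a description, and grey points are the other genes, which lie around the 0.16 median of all genes on both sides of the pair.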

How the data were processed

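Ribosomal RNA was removed from 100 ng of total RNA per library and cDNA was tagmented with Nextera enzyme, per the labels' protocols, a preparation that does not record strand. The authors deposited FPKM values for 76557 loci in 8 libraries. Per the submitters' processing notes, bcl2fastq, fastp, HISAT2, StringTie and DESeq2 were used with GRCm39 and hg38. Their versions and options, and the role of hg38, are not stated in these notes. Low values did not fall on steps of whole reads: in the 28 pairs of libraries at most 2.69% of loci under 0.05 FPKM shared 1 bin of width 0.02 in the log2 ratio, so depth is unknown.

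The 9916 named loci that reached 1 FPKM in 4 or more libraries were fitted as log2(FPKM + 1) on genotype with limma 3.58.1 under R 4.3.3 (trended empirical Bayes). Its p-values are two-sided and were adjusted over all these loci by Benjamini-Hochberg. This scale understates changes of low genes. Where a name stood on several loci (67 names), the locus of highest mean stood for it in the gene lists. No scaling was applied in the reported fit, and median-ratio size factors were the alternative. SEs of differences are limma's. Libraries come from separate mice. Same-numbered wildtype and Has-tKO libraries share only a number. The code was tested on simulated data. Members, lists and comparisons were chosen with earlier results of these data known. Named are the pair, all tested heavy chain and assembly genes, up to 4 genes of smallest p per other list, called genes within 1 Mb, and the 5 likest genes for each of the pair. Other names were chosen after their values were seen. Similarity of transcripts used GENCODE M21, and alignments used Biopython 1.88. Amino acid sequences were not used here.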

Additional observations from a re-analysis of the deposited data

Results flagged for a closer look

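Of 42 groups of 4 libraries examined for class I genes, their sum and their ratio, 1 held a library far from the others. H2-T23 was at 5.81 FPKM in wildtype 1 and at 3.28 to 3.57 FPKM in the other 3 wildtype libraries, a gap of 0.887 of the range, past Dixon's limit for 4 samples. Chance alone flags about 5% of such groups.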

How the results depend on the processing

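The difference between genotypes stayed positive under each alternative for H2-D1 and H2-K1. As deposited their groups did not overlap, so leaving out libraries or changing the pseudocount could not have reversed the sign. The pair was also chosen on this contrast, so the kept sign is a description only. Leaving out 1 library at a time gave 0.75 to 0.998 for H2-D1, 0.73 to 1.01 for H2-K1, 0.76 to 1.004 for their sum and -0.10 to 0.08 for their log2 ratio. Taken relative to B2m, an alternative chosen after seeing the data, the differences were 0.24 for H2-D1 and 0.23 for H2-K1, since B2m was itself higher in the Has-tKO mean. The count of changed genes was 176 as reported, 111 with a pseudocount of 0.1, 2 without a filter on low values, 358 without wildtype 1 and Has-tKO 4, and 10 (without wildtype 4) to 349 (without wildtype 1) with 1 library left out. Median-ratio scaling gave 135 higher and 128 lower against 157 and 19. Between Has1 and H2-D1 the count of 6 became 0 without a filter and 0 to 12 with 1 library left out. Within 1 Mb the count of 2 became 1 with a pseudocount of 0.1 or 0.5, 0 without a filter and 0 to 4 with 1 library left out. The cause was not tested. The assembly genes gave 0 calls under each alternative. With the replicate number as a block 147 genes passed, 120 higher and 27 lower, and the differences of the pair were 0.88 and 0.87. Same-numbered libraries had correlated deviations of -0.08, 0.31, -0.12 and -0.06, so the numbers were not taken as a pairing. Depth is unknown, 4 mice per genotype limit the precision, and reads shared among class I genes limit the level of each.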
